A study of Mus musculus with 2 samples.

Results

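The 10 genes described here are inflammatory cytokines and markers of the M1-like state of myeloid cells, chosen by name from the 32285 genes of the count table. They are the ligands Il1a, Il1b, Il18, Tnf, Il6 and Osm, the receptor antagonist Il1rn, and the enzymes Nos2, Ptgs2 and Acod1, and all 10 were found. Droplet scRNA-seq counted their RNA in tumors grown in mice from RM-1, a prostate cancer line of the mouse. Enzalutamide (ENZ) inhibits the androgen receptor. The Control library came from a tumor given vehicle and the ENZ library from a tumor given enzalutamide. Both genotypes are labelled WT, and dose, duration and age are not given for the sequenced mice. Per the study's methods the tissue came from a pair of mice and immune cells were enriched during sorting with a kit and a CD45 stain, so shares of cell types also depend on that step. Each condition has 1 library, so there was neither a replicate nor a test. Every interval is at 95% and covers counting error only, and a difference between the libraries cannot be told apart from a difference between 2 mice or 2 library preparations.

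The IL-1 family is the core of this group. Il1a and Il1b encode agonists of the same receptor, and Il1rn encodes a protein that occupies the receptor without signalling. IL-1β and IL-18 are made as precursors that inflammasome caspases cut, whereas TNF is released from the cell surface by a protease. IL-6 and oncostatin M (Osm) signal through receptors that share the gp130 chain. Among the enzymes, Nos2 makes nitric oxide from arginine, Ptgs2 (COX-2) catalyses the committed step of prostaglandin synthesis, and Acod1 makes itaconate from an intermediate of the citric acid cycle. Many of these genes are switched on in macrophages, monocytes and neutrophils by Toll-like receptors through NF-κB and AP-1, and in tumors they are studied as signs of how myeloid cells have been activated. RNA levels do not report processing or release of the proteins.

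In GENCODE M21 on GRCm38 all 10 are protein-coding genes. Il1a (ENSMUSG00000027399) lies on chromosome 2 from 129299610 to 129309972 on the minus strand, and Il1b (ENSMUSG00000027398) from 129364570 to 129371139 on the same strand, 54597 bases further on. Il1rn (ENSMUSG00000026981) is on the same chromosome, from 24336853 to 24351494. The other cytokines are Tnf (ENSMUSG00000024401) on chromosome 17 from 35199381 to 35202007, Il6 (ENSMUSG00000025746) on chromosome 5 from 30013114 to 30019981, Il18 (ENSMUSG00000039217) on chromosome 9 from 50554827 to 50581840 and Osm (ENSMUSG00000058755) on chromosome 11 from 4236420 to 4241026. The enzymes are Nos2 (ENSMUSG00000020826) on chromosome 11 from 78920787 to 78960254, Ptgs2 (ENSMUSG00000032487) on chromosome 1 from 150100031 to 150108227 and Acod1 (ENSMUSG00000022126) on chromosome 14 from 103046977 to 103056573. The 100 bases before the start site were read from the RefSeq promoter table on GRCm38.p6, which held 8 of the 10 genes (not Nos2 and Osm). They were searched for an NF-κB-like string (GGGA and TTCC with any 2 bases between them) and an AP-1-like string (TGANTCA), which do not overlap each other here, on both strands. The windows of 5 genes that overlap no annotated transcript are shown, to set the neighbours Il1a and Il1b beside 3 other members. Capitals mark the matches:
Il1a, chr2:129309973-129310072, minus strand: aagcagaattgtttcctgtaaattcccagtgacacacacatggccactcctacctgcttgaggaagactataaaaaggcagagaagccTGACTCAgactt
Il1b, chr2:129371140-129371239, minus strand: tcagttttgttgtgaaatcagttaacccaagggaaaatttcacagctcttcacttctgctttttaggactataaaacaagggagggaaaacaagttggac
Tnf, chr17:35202008-35202107, minus strand: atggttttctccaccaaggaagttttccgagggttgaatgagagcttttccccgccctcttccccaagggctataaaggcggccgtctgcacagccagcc
Il6, chr5:30013014-30013113, plus strand: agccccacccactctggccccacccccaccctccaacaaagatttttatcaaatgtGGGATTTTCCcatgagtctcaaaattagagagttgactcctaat
Ptgs2, chr1:150099931-150100030, plus strand: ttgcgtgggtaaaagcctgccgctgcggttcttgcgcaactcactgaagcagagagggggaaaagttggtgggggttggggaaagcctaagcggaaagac
The AP-1-like string stood in the window of Il1a alone of the 8 genes, and the NF-κB-like string in that of Il6 alone. Over all 32851 promoters in the table, the same window held the AP-1-like string in 2.73% and the NF-κB-like string in 0.457%. The neighbouring genes Il1a and Il1b thus differ in this window, and the absence of a match says only that these letters are not in these 100 bases.

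The Control library held 170830346 unique molecular identifiers (UMIs, counted molecules) and the ENZ library 162030149. Filtering left 11958 Control and 9979 ENZ cells (medians of 6140.5 and 7795 UMIs per cell), and 40 barcodes of at least 1000 UMIs occurred in both libraries. Cells were grouped into 23 clusters without the 10 genes and without the pathway genes described further on, so that their levels did not form the groups. Macrophages, with C1q genes, were 1913 Control and 847 ENZ cells. Monocytes, with Ly6c2 and Chil3, were 753 and 1265 cells, and neutrophils, with S100a8 and Retnlg, 1347 and 514 cells. Dendritic cells (DC) were 649 and 294 cells, in a cluster led by Clec9a and Wdfy4 and another led by Ccl22 and Ccr7. Cancer cells, with keratins or Pcdh9 and Meis2, were 4322 and 4542 cells in 7 clusters. These names rest on rebuilt clusters. Of the 23 clusters 3 stayed unnamed, among them 1872 cells with few UMIs. Another, of 162 cells, had all 9 macrophage and 5 of 6 monocyte markers up but a marker of another class than macrophages (Chil3) among its leading genes, and its Il1b was 816 CPM in Control and 915 CPM in ENZ. Levels are CPM, the UMIs of a gene divided by all UMIs of the class and scaled to 1e+06, and each molecule counts once whatever its gene's length. The 8 cancer markers summed to 1323 and 1357 CPM in the cancer cells of the Control and ENZ library and to 67.0 and 95.6 CPM in the macrophages. A set of 6 genes that gather ribosomal RNA reads (Gm42418 and others) took 3.41% of macrophage UMIs in Control and 9.14% in ENZ, and 4.85% and 9.88% of monocyte UMIs. Leaving these genes, mitochondrial genes and ribosomal protein genes out of the denominator together moved no member across 1.5-fold in the 5 classes. Tnf in monocytes (1.493), Nos2 in cancer cells (1.494) and Il1b in DC (0.666) then lay close to that limit.

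Neutrophils held the highest level of 8 of the 10 genes in both libraries, and monocytes that of Il18 and Il6 among the 5 classes. Il1b was by far the most abundant member, at 8535 CPM in Control and 7272 CPM in ENZ neutrophils. Nos2, the textbook M1 marker, reached no more than 52.9 CPM in any of these classes. Il6 and Il18 peaked lower still, at 47.5 CPM in ENZ monocytes and 44.4 CPM in Control monocytes. Cancer cells held all 10 genes at under 80 CPM. Ptgs2 was the most abundant member there in both libraries, and the interval of Il18 in Control cancer cells overlapped those of macrophages and of neutrophils.

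**Figure D1:**
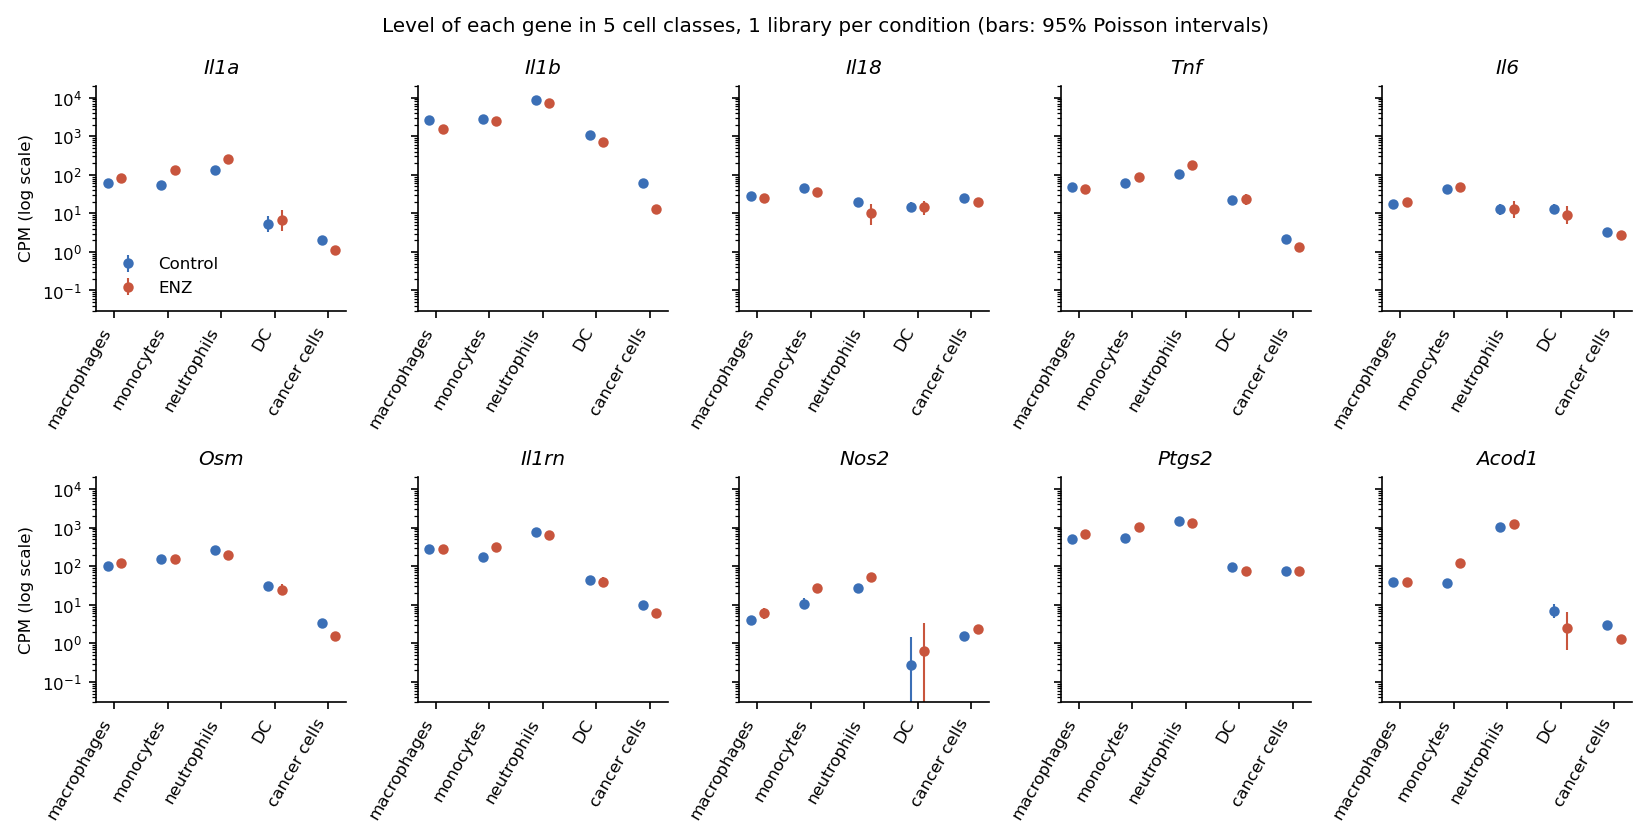
Level of each gene in CPM (log axis) in macrophages, monocytes, neutrophils, DC and cancer cells of the Control (blue) and ENZ (red) library, with 95% Poisson intervals. Il1b lies near 8535 and 7272 CPM in neutrophils and falls by class to 62.2 and 12.6 CPM in cancer cells, while Nos2 stays under 60 CPM throughout.

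Il1b, the agonist that inflammasomes release, was lower in the ENZ library in all 5 classes, by unequal amounts. In macrophages it stood at 2601 CPM (2576 to 2626) in Control and 1538 CPM (1507 to 1569) in ENZ, a ratio of 0.59 (0.58 to 0.60). Monocytes had 2808 and 2450 CPM, a ratio of 0.87 (0.85 to 0.89). Neutrophils had 8535 and 7272 CPM, a ratio of 0.85 (0.83 to 0.87). The order of the classes was the same in both libraries, and no neighbours in it had overlapping intervals. Clustering each library alone turned the direction in monocytes (log2 ratio 0.06) and in DC (0.044), and the other alternatives kept it. After thinning each cell to 1000 UMIs, 73.8% of Control and 56.0% of ENZ macrophages had an Il1b UMI, against 70.9% and 66.5% of monocytes and 95.4% and 93.6% of neutrophils. B cells, which should lack the transcript, showed it in 8.89% of 90 Control cells and 1.89% of 53 ENZ cells, with median depths of 2352.5 and 3020 UMIs before thinning. This B cluster also had Siglech among its leading genes. Shares in T cells (8.21% and 4.55%) and NK cells (6.87% and 1.04%) were near that background. In barcodes far under the limit for cells, which hold mostly free RNA, Il1b made up 606 CPM in Control and 327 CPM in ENZ.

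Il1a went the other way in myeloid cells, although it encodes a ligand of the same receptor. Monocytes had 54.9 CPM (47.5 to 63.3) in Control and 134 CPM (125 to 143) in ENZ, a ratio of 2.44 (2.08 to 2.86). Neutrophils had 136 and 254 CPM, a ratio of 1.87 (1.61 to 2.18). Macrophages had 62.2 and 84.7 CPM, a ratio of 1.36 (1.22 to 1.52). In these 3 classes Il1a was therefore higher and its neighbour Il1b lower in the ENZ library. Counted against Il1b in the same cells, there were 1.96 Il1a UMIs per 100 Il1b UMIs in Control monocytes and 5.47 in ENZ monocytes. The same measure went from 1.59 to 3.49 in neutrophils and from 2.39 to 5.51 in macrophages. The share of thinned monocytes with an Il1a UMI was 4.12% in Control and 10.9% in ENZ, and no thinned B cell had any (0 of 90 cells, which by a limit of 3 counts allows a share of up to 3.33%, and 0 of 53, which allows up to 5.66%). All 11 alternatives kept the Il1a ratio above 1 in monocytes and in neutrophils, with log2 ratios from 0.87 to 2.87 and from 0.87 to 1.26. In macrophages 12 of 13 did, and the exception, each library clustered alone, had a log2 ratio of -0.22.

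Il1rn, whose product blocks the receptor of both agonists, was higher in ENZ in monocytes only among the 3 myeloid classes. Its level there was 176 CPM (163 to 191) in Control and 309 CPM (296 to 323) in ENZ, a ratio of 1.75 (1.60 to 1.92). It stayed above 1 under all 11 alternatives, but its log2 ratio of 0.81 ranged from 0.17 at Leiden resolution 0.5 to 1.69 with each library clustered alone, and 4 of them put it under 1.5-fold. Neutrophils had 785 and 654 CPM (ratio 0.83, 0.77 to 0.90), and macrophages 285 and 275 CPM (ratio 0.97, 0.91 to 1.02). In level the Control library had macrophages above monocytes, and the ENZ library had monocytes above macrophages. Per 100 Il1b UMIs there were 6.29 Il1rn UMIs in Control and 12.6 in ENZ monocytes, and 10.9 and 17.9 in macrophages, but 9.20 and 8.99 in neutrophils. The neutrophil values lie within counting error of each other.

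Tnf, which acts on a broad range of cells and is an early product of activated myeloid cells, had 107 CPM (95.4 to 119) in Control and 176 CPM (153 to 201) in ENZ neutrophils. That ratio was 1.65 (1.38 to 1.97). Monocytes had 60.3 and 88.0 CPM, a ratio of 1.46 (1.24 to 1.71), and macrophages 48.4 and 42.8 CPM, a ratio of 0.88 (0.77 to 1.02). The ENZ neutrophils and monocytes were thus higher beyond counting error, and macrophages were not distinguishable. Tnf is also made by lymphocytes, and T cells had 28.4 and 25.9 CPM.

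Il6 was scarce in myeloid cells and highest in fibroblasts, a class outside the 5 compared. The 105 Control fibroblasts held Il6 at 91.3 CPM and the 80 ENZ fibroblasts at 83.1 CPM. Monocytes had 42.7 CPM (36.1 to 50.1) and 47.5 CPM (42.4 to 53.1), a ratio of 1.11 (0.91 to 1.36). Macrophages, DC and neutrophils ranged from 9.29 to 19.6 CPM, with overlapping intervals between neighbours in the order. Its interval included a ratio of 1 in all 5 classes.

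Osm, which drives stromal and epithelial cells through gp130, followed Il1b in its order of classes but not in its ratios. Neutrophils had 263 CPM (245 to 282) in Control and 194 CPM (170 to 220) in ENZ, a ratio of 0.74 (0.63 to 0.85). Monocytes had 155 and 151 CPM, a ratio of 0.98 (0.88 to 1.09). Macrophages had 103 and 121 CPM, a ratio of 1.17 (1.07 to 1.28). None of these passed 1.5-fold.

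Il18 had the flattest profile of the 10 genes, from 9.92 to 44.4 CPM over the 5 classes. Monocytes were highest, at 44.4 CPM (37.7 to 51.9) in Control and 34.9 CPM (30.6 to 39.8) in ENZ, a ratio of 0.79 (0.64 to 0.97). The direction turned under 2 of 11 alternatives, with log2 ratios of up to 0.17. In neutrophils 60 Control UMIs and 12 ENZ UMIs gave 19.9 and 9.92 CPM, a ratio of 0.50 (0.24 to 0.94). With classes from marker UMIs its log2 ratio went from -1.004 to -0.26, which is no longer past 1.5-fold. Cancer cells had 24.5 and 20.1 CPM. They were the most numerous class and held 76.9% of the Il18 UMIs of all Control cells and 82.3% of those of ENZ cells. They also held most UMIs of all genes together (109932335 of 148487548 in Control and 114229532 of 140343597 in ENZ). Their Il18 level was thus near that of all cells together, at 23.6 and 19.9 CPM. For Il1b, by contrast, macrophages held 45.3% and neutrophils 28.2% of the UMIs in Control, and monocytes held 41.2% in ENZ, where macrophages held 25.0% and neutrophils 22.7%.

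Among the enzymes, Ptgs2 was the most abundant. Neutrophils had 1511 CPM (1467 to 1555) in Control and 1331 CPM (1266 to 1397) in ENZ, a ratio of 0.88 (0.83 to 0.93). Monocytes had 534 CPM (510 to 558) and 1042 CPM (1017 to 1067), a ratio of 1.95 (1.85 to 2.06). Under all 11 alternatives it stayed above 1, with a log2 ratio of 0.97 that ranged from 0.57 with at least 2000 UMIs, just under 1.5-fold, to 2.04 with each library clustered alone. Macrophages had 498 and 682 CPM, a ratio of 1.37 (1.32 to 1.42). The macrophage direction turned under 3 of 13 alternatives, to log2 ratios of -0.03 with doublets kept, -0.05 with at most 10% mitochondrial UMIs and -0.67 with each library clustered alone, and the neutrophil direction under 2 of 11, to at most 0.02. Control monocytes lay near macrophages, and ENZ monocytes lay between macrophages and neutrophils. Of thinned monocytes, 29.6% in Control and 46.0% in ENZ had a Ptgs2 UMI, against 5.56% and 0% of B cells.

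Acod1 separated neutrophils from the other classes more than any other member. Their level was 1013 CPM (978 to 1050) in Control against 1227 CPM (1166 to 1291) with ENZ, a ratio of 1.21 (1.14 to 1.29), and held 71.6% and 52.7% of its UMIs in all cells. Monocytes went from 37.0 CPM (30.9 to 43.9) in Control to 122 CPM (113 to 130) in ENZ, a ratio of 3.29 (2.73 to 3.99), the highest ratio of any member in the 5 classes, with log2 ratios from 1.496 to 2.55 over 11 alternatives. Macrophages had 38.0 and 39.3 CPM, a ratio of 1.03 (0.89 to 1.20). Markers of neutrophils in the other classes are given here because neutrophils are rich in Acod1. Monocytes of both libraries carried the neutrophil gene Retnlg at 2.56 and 2.76 CPM, against 2632 and 3546 CPM in neutrophils. At the neutrophils' own ratio of Acod1 to Retnlg, that amounts to 0.986 and 0.955 CPM of Acod1. S100a8, a neutrophil marker that monocytes also express, was 97.9 and 252 CPM in them. An amount taken from Retnlg alone does not cover S100a8, and the part of neutrophil RNA in the monocyte ratios was not tested. In macrophages Retnlg was 30.01 CPM in Control and 12.7 CPM in ENZ, which amounts to 11.6 and 4.38 CPM of Acod1 and to 97.3 and 26.0 CPM of Il1b. With these taken off, the macrophage ratio was 1.32 for Acod1 and 0.60 for Il1b.

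Nos2 was close to absent in macrophages, with 63 UMIs (3.96 CPM) in 1913 Control cells and 38 UMIs (6.02 CPM) in 847 ENZ cells. The ratio of 1.52 had an interval from 0.99 to 2.31, and its log2 value of 0.60 ranged from 0.36 to 1.88 over 13 alternatives. Monocytes had 10.8 CPM (7.65 to 14.8) in Control and 27.3 CPM (23.4 to 31.6) in ENZ, a ratio of 2.52 (1.77 to 3.68). Its log2 value of 1.33 ranged from 1.15 with doublets kept to 3.99 with each library clustered alone, far outside the counting interval. Neutrophils had 26.5 CPM (21.0 to 33.0) and 52.9 CPM (40.8 to 67.6), a ratio of 1.99 (1.41 to 2.81). Among the myeloid classes this M1 marker was thus highest in neutrophils and monocytes, where it also differed beyond counting error. Fibroblasts held Nos2 at 40.5 CPM in Control, more than Control neutrophils though with overlapping intervals, and at 23.3 CPM in ENZ, a ratio of 0.57 (0.37 to 0.86). Few fibroblasts carried it, 8.57% of 105 Control and 11.25% of 80 ENZ cells before thinning and 2.86% and 1.25% after it. The share before thinning thus did not go with the level. Cancer cells had 1.60 and 2.38 CPM, a ratio of 1.49 (1.23 to 1.81). Only 0.531% of thinned Control monocytes and 2.37% of ENZ monocytes had a Nos2 UMI. DC had 1 UMI in each library.

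**Figure D2:**
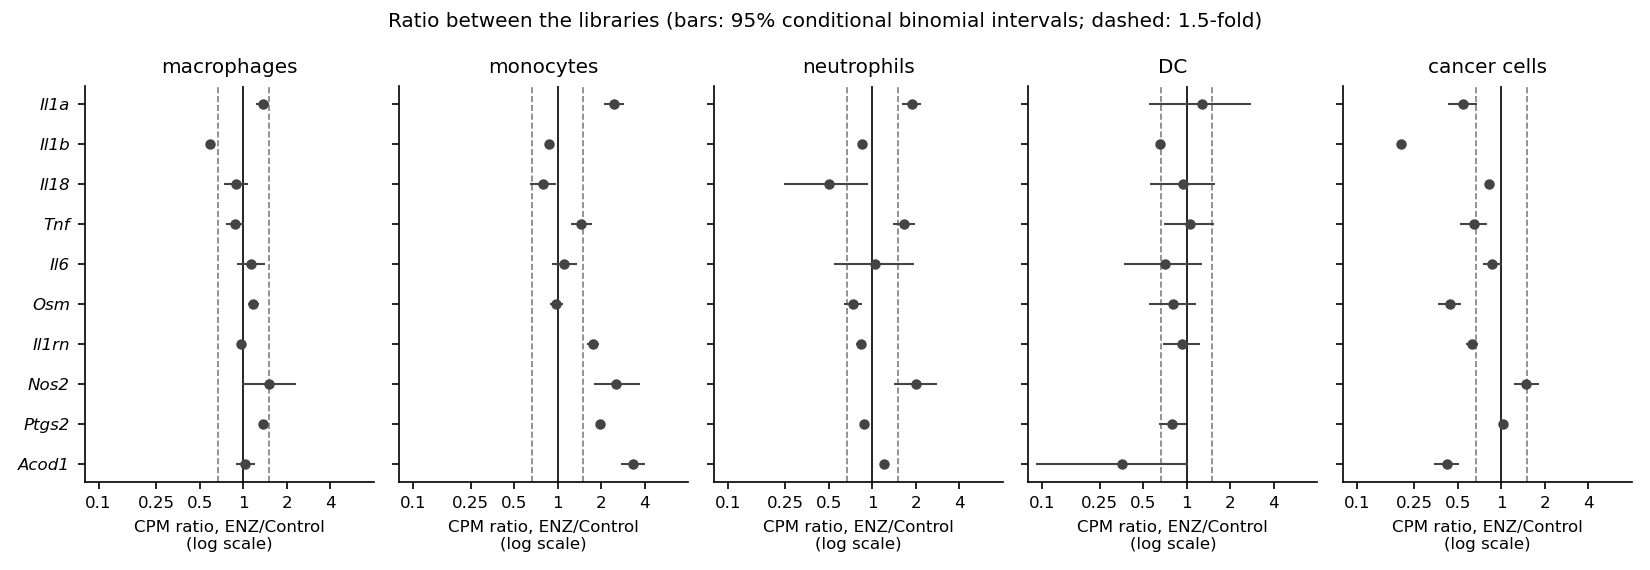
Ratio of CPM, ENZ over Control (log axis), of the 10 genes in each class, with 95% conditional binomial intervals. In monocytes 5 genes lie right of the dashed 1.5-fold line and Il1b lies left of 1 at 0.87, while in cancer cells 6 genes lie left of the lower line, at 0.20 for Il1b.

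Monocytes had the most members past the fold upward. Of the 10 genes, 5 were higher by 1.5-fold or more in ENZ monocytes (Acod1, Nos2, Il1a, Ptgs2 and Il1rn) and 0 were lower, against 14.2% of all 11438 measured genes higher and 8.26% lower. The median log2 ratio was 0.68 for the 10 genes and 0.07 for all genes. The 8 neutrophil markers, all detected, summed to 359 and 558 CPM in these monocytes (S100a8 the most abundant, 97.9 and 252 CPM), and their part in the count was not tested. Neutrophils had 3 higher (Nos2, Il1a and Tnf) and 1 lower (Il18), with 12.3% of 8939 genes higher and 11.9% lower, and medians of -0.06 and 0.03. Markers of other classes also differed in the neutrophils, where the 6 monocyte markers summed to 625 and 953 CPM (Plac8 the most abundant, 384 and 414 CPM) and the 9 macrophage markers to 811 and 497 CPM (Apoe, 394 and 223 CPM), and their part in these counts was not tested. Macrophages had 1 higher (Nos2) and 1 lower (Il1b), with 15% of 13780 genes higher and 9.57% lower, which is near the background. Their medians were 0.12 and 0.15. Thinned cells with UMIs of at least 3 of the 10 genes were 16.1% (13.5% to 18.9%) of Control and 30.6% (28.1% to 33.2%) of ENZ monocytes. The same share was 17.7% and 18.7% in macrophages and 57.7% and 54.5% in neutrophils, with overlapping intervals. The count of 5 in monocytes was 4 when doublets were kept, when cells needed 2000 UMIs, or when mitochondrial UMIs were limited to 10%. It was 6 with classes from marker UMIs or when CPM was averaged over cells, and 7 with each library clustered alone, where 1 was lower.

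**Figure D3:**
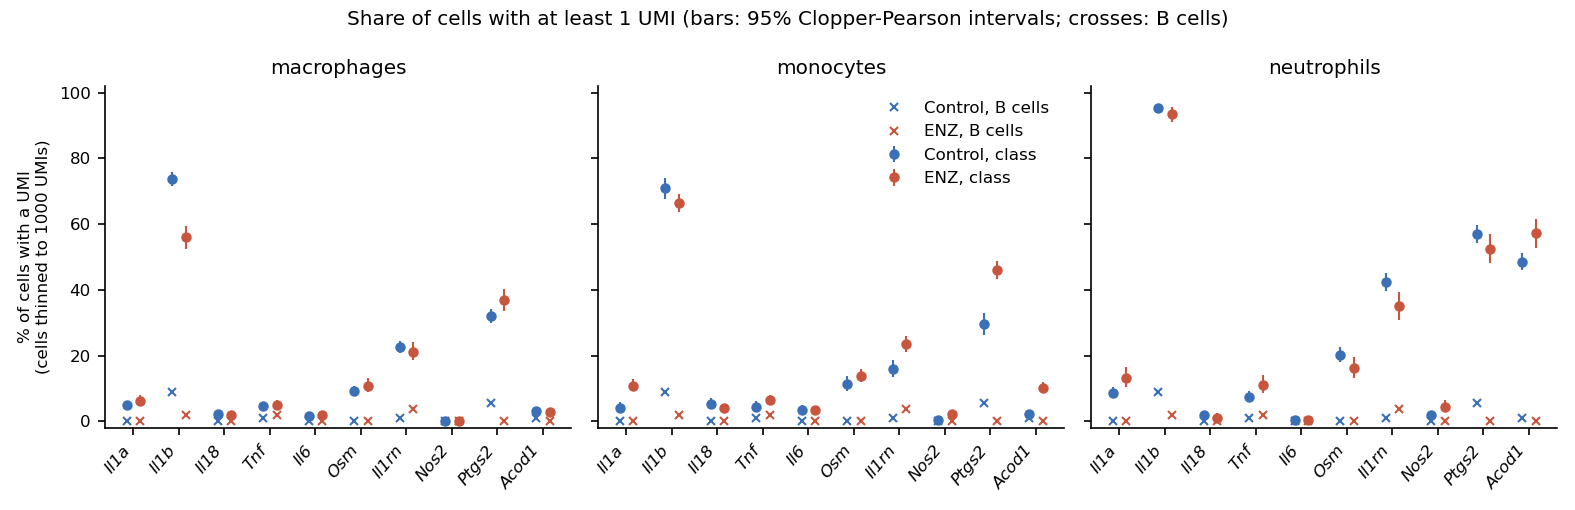
Percent of cells with at least 1 UMI of each gene after thinning to 1000 UMIs, in macrophages, monocytes and neutrophils (points, 95% Clopper-Pearson intervals) and in B cells of the same library (crosses). In monocytes the ENZ points of Ptgs2 (46.0%), Il1rn (23.4%), Il1a (10.9%) and Acod1 (10.3%) lie above the Control points (29.6%, 15.9%, 4.12% and 2.26%), while Il1b does not.

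Within ENZ monocytes Il1a, Ptgs2, Acod1, Il1rn and Nos2 occurred more often in cells that also had an Il1b UMI. Of thinned ENZ monocytes with an Il1b UMI, 14.7% (12.4% to 17.3%) had an Il1a UMI, against 3.30% (1.82% to 5.48%) of those without. For Ptgs2 these shares were 56.1% and 25.9%, and for Acod1 12.2% and 6.37%. They were 27.2% and 15.8% for Il1rn, and 3.21% and 0.708% for Nos2. In Control monocytes the Il1a shares were 4.87% with and 2.28% without Il1b, with overlapping intervals. The Il1a share in ENZ monocytes without Il1b overlapped both within its interval. In Control monocytes the intervals of Acod1 (2.81% and 0.913%) and Nos2 (0.562% and 0.457%) also overlapped, while those of Ptgs2 and Il1rn did not. Ptgs2 showed the same split in macrophages, at 37.9% with and 15.9% without Il1b in Control and 48.7% and 22.0% in ENZ. Cells that share a gene here also share a library and a depth, so these shares are a description.

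The macrophages were 2 clusters in different proportions. Cluster 6, led by Chil3, Mmp12 and Mgl2, had 1361 Control and 424 ENZ cells, and cluster 8, led by C1qc, Fcrls and Ccl12, had 552 and 423 cells. Most members were richer in cluster 6, with Il1b at 3207 CPM in Control and 1993 CPM in ENZ, against 1601 and 1184 CPM in cluster 8. Il1b was lower in ENZ within each, at ratios of 0.62 (0.60 to 0.64) and 0.74 (0.71 to 0.77). Ptgs2 was higher within each, at 1.68 (1.61 to 1.76) in cluster 6 and 1.45 (1.35 to 1.57) in cluster 8, both above the 1.37 of the pooled class, whose direction turned under 3 of 13 alternatives. Il1a was likewise higher in both, at 1.53 (1.33 to 1.75) and 1.44 (1.20 to 1.73). Il1rn had ratios of 1.24 (1.16 to 1.32) and 0.86 (0.78 to 0.96). Nos2 differed in direction on few molecules, with 38 and 3 UMIs in cluster 6 and 25 and 35 UMIs in cluster 8. Acod1 did as well, with 27.1 and 41.6 CPM in cluster 6 (ratio 1.53, 1.22 to 1.92) and 56.0 and 37.5 CPM in cluster 8 (ratio 0.67, 0.54 to 0.82). Retnlg moved with the latter, at 71.3 and 20.6 CPM in cluster 8 and 4.95 and 2.53 CPM in cluster 6, and its part within the clusters was not tested. Among monocyte genes in cluster 6, Chil3 had 133 and 982 CPM and Ly6c2 48.1 and 58.9 CPM, while C1qa had 860 and 471 CPM. In cluster 8 Chil3 had 68.3 and 190 CPM, Ly6c2 45.0 and 46.2 CPM and C1qa 2346 and 2004 CPM. The part of monocyte RNA or of cell state in the ratios within the clusters was not tested. The count of macrophage members past the fold was the least stable, at 5 higher and 0 lower with a minimum of 2000 UMIs and at 1 higher and 6 lower with each library clustered alone. In the latter, 1077 Control cells with few UMIs counted as macrophages while 796 such ENZ cells stayed unnamed.

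**Figure D4:**
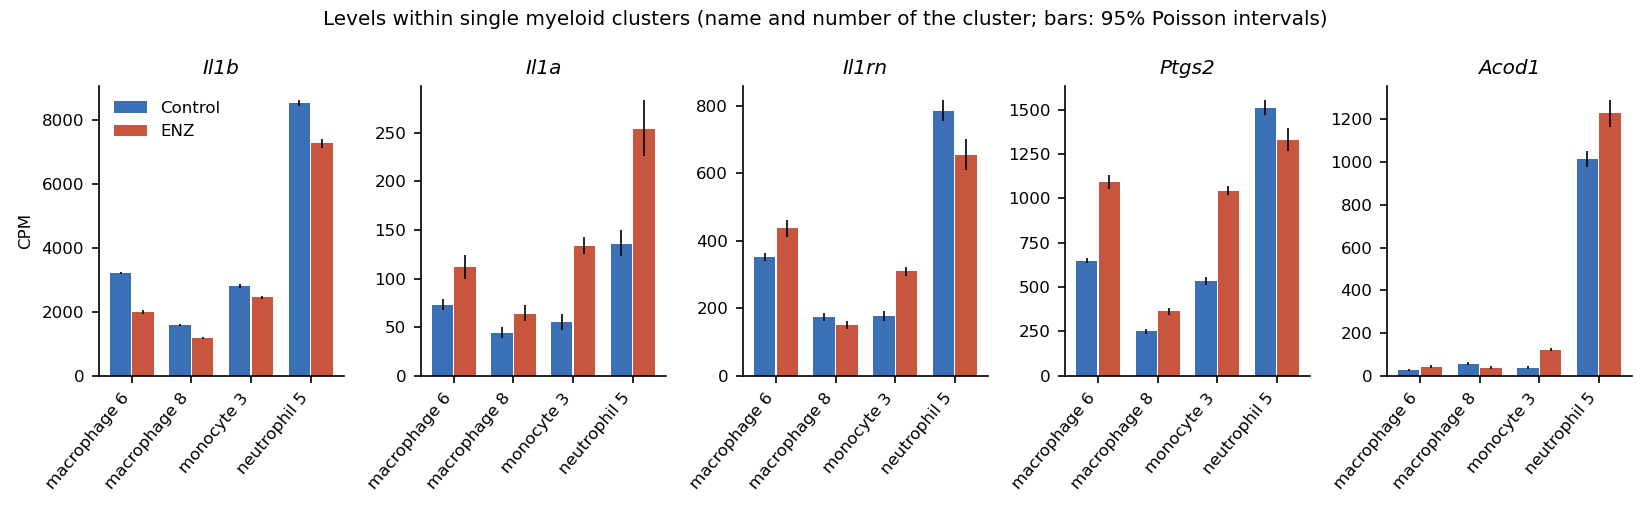
CPM of 5 genes in macrophage clusters 6 and 8, monocyte cluster 3 and neutrophil cluster 5 of the Control (blue) and ENZ (red) library, with 95% Poisson intervals. Il1b is lower in ENZ in each cluster, Ptgs2 is higher in both macrophage clusters and in monocytes (534 and 1042 CPM), and Acod1 is concentrated in neutrophils (1013 and 1227 CPM).

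In DC, Il1b was again the leading member, at 1054 CPM (1021 to 1087) in Control and 692 CPM (652 to 734) in ENZ, a ratio of 0.66 (0.61 to 0.70), which clustering each library alone turned to a log2 ratio of 0.044. Acod1, with 26 and 4 UMIs, had a ratio of 0.36 (0.09 to 1.02) and log2 ratios from -2.17 to -0.88 over 10 alternatives. These were the 2 of 9 measured members past the fold, both lower, against 8.89% of 10245 genes lower and 14.8% higher. The Clec9a cluster had 1100.5 and 861 CPM of Il1b and the Ccr7 cluster 786 and 188 CPM, ratios of 0.78 (0.73 to 0.84) and 0.24 (0.18 to 0.31). With at least 2000 UMIs, 281 cells led by genes such as Clec9a lay apart from an unnamed cluster of 433 cells led by Cd209a. The Clec9a cluster may thus pool kinds of DC. The other members lay at or under 95.7 CPM, and the intervals of their ratios included 1 except for Ptgs2 at 0.80 (0.64 to 0.98). Summed neutrophil markers in DC were 271 CPM in Control and 50 CPM in ENZ, with all 8 detected in both and S100a9 the most abundant (147 and 16.1 CPM). Macrophage markers in DC summed to 571 and 342 CPM (Apoe the most abundant, 223 and 99.1 CPM) and NK markers to 63.8 and 7.43 CPM. Cancer markers went the other way, at 83.9 and 123 CPM, as did the markers of DC themselves, at 1880 and 2807 CPM. The part of any of these in the DC ratios was not tested.

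In cancer cells the members were low and the difference between libraries rested largely on a single cluster. Over all cancer cells, 6 of 10 were lower past 1.5-fold in ENZ and 0 higher, against 9.78% of 18768 genes lower and 3.67% higher. Il1b lay at 62.2 CPM in Control cancer cells against 12.6 CPM with ENZ, a ratio of 0.20 (0.19 to 0.21). Cancer cluster 17, with 172 Control and 11 ENZ cells, had 551 CPM of Il1b in Control along with 61.4 CPM of Retnlg and 245 CPM of C1qa beside 479 CPM of Krt8. Without it, Il1b had 30.5 and 12.0 CPM, a ratio of 0.39. Of the members, 1 (Il1b) was then lower and 1 (Nos2, 1.57 and 2.39 CPM, though lower in cluster 1) was higher. Acod1 then went from a ratio of 0.42 to 0.87 and Osm from 0.44 to 0.67. The neutrophil marker S100a8 was also lower in ENZ in the 3 largest remaining clusters, at 12.3 and 7.67 CPM in cluster 0, 13.5 and 8.89 CPM in cluster 1 and 16.0 and 6.55 CPM in cluster 2. Il1b in these 3 was 28.2 and 12.6 CPM, 22.5 and 10.7 CPM, and 31.0 and 10.98 CPM. In cluster 20, of 133 cells, both were higher in ENZ (S100a8 8.74 and 11.4 CPM, Il1b 15.3 and 21.8 CPM), and the part of myeloid RNA in the remaining ratio was not tested. Another of the 7 clusters, of 473 cells, was led by hemoglobin genes and had Il1b at 146 and 21.0 CPM. With each library clustered alone, a cluster led by these genes was named endothelial in Control and cancer in ENZ. It may thus hold cells other than cancer cells. Without cluster 17, Ptgs2 and Il18 changed little between the libraries, with Ptgs2 at 72.9 and 77.1 CPM and Il18 at 24.5 and 20.1 CPM. Thinned cancer cells had a Ptgs2 UMI in 6.96% (Control) and 6.54% (ENZ), and an Il1b UMI in 4.79% and 1.63%, which for Il1b is at or below the share in B cells.

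The pathway around the members was followed in 7 gene lists, read only as counts and medians beside the shares and medians of all genes given above (14.2% higher and 8.26% lower in monocytes, 15% and 9.57% in macrophages, 12.3% and 11.9% in neutrophils, with median log2 ratios of 0.07, 0.15 and 0.03). Of 14 receptor and prostaglandin genes, 5 of 13 measured were higher past the fold in ENZ monocytes and 0 lower, with Ptges, the synthase next to Ptgs2, at the highest ratio (12.8 and 31.0 CPM, 2.42) and Il6ra at the lowest (0.76). In macrophages 2 of 14 were higher, and in neutrophils 2 of 13, in each case led by Ptges (1.79 and 2.14), which is near the background. The list's median log2 ratios were 0.44 in monocytes, 0.33 in macrophages and 0.07 in neutrophils. The decoy receptor gene Il1r2 was the most abundant of the list in all 3, with 1878 and 1489 CPM in neutrophils, 386 and 420 CPM in monocytes and 367 and 283 CPM in macrophages. Among 8 inflammasome and processing genes, none was past the fold in macrophages or neutrophils and 1 was lower in monocytes (Casp1, 0.62), and the medians were -0.09, 0.13 and -0.08. Nlrp3, a sensor that drives IL-1β release, was the most abundant of them in all 3, with 975 and 1116 CPM in neutrophils and 271 and 230 CPM in macrophages.

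Of the receptors, 3 that were richer outside the myeloid cells are given here, chosen after their values had been seen. The list as a whole was not: it summed to 3633 and 3410 CPM in neutrophils, 947 and 1136 CPM in monocytes and 789 and 793 CPM in macrophages, against 442 and 484 CPM in cancer cells. Il1r1, which signals for both IL-1 agonists, was highest in fibroblasts, at 174 CPM in Control and 310 CPM in ENZ (ratio 1.79, 1.55 to 2.05). T cells had 121 and 89.0 CPM of it and cancer cells 83.3 and 80.1 CPM, while macrophages, monocytes, neutrophils and DC ranged from 4.33 to 23.0 CPM. Osmr, the oncostatin M receptor, was also highest in fibroblasts, at 94.5 and 156 CPM (ratio 1.65, 1.36 to 2.001), and cancer cells had 39.2 and 40.5 CPM. Il18r1 was a lymphocyte transcript, at 161 and 207 CPM in T cells and 62.7 and 63.0 CPM in NK cells. Il1b RNA was thus richest in myeloid cells and Il1r1 RNA in fibroblasts, T cells and cancer cells.

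Few sensing and transcription genes were past the fold in the 3 myeloid classes. In macrophages 1 of 16 was past the fold, Cd14, a co-receptor for bacterial lipopolysaccharide, at 1273 CPM in Control and 750 CPM in ENZ (ratio 0.59, 0.57 to 0.61). Hif1a had the highest ratio there, at 1.47. In monocytes 1 of 16 was higher, Tlr2 (109 and 177 CPM, 1.62), and Cd14 was at 1417 and 1359 CPM. Neutrophils had 2 of 16 higher, among them Tlr2 at 90.5 and 146 CPM (1.61). These shares are near or under the background, and the medians were 0.19, -0.01 and 0.12 in macrophages, monocytes and neutrophils. In DC 1 of 16 was higher and 3 were lower, against 14.8% and 8.89% of all genes, and in cancer cells 2 were lower, against 9.78%, with Cd14 at the lowest ratio in both (0.43 and 0.33). Of 10 genes that restrain NF-κB and cytokine signalling, 2 were higher in monocytes, led by Tnfaip3 (165 and 287 CPM, 1.73), 1 in macrophages (Zfp36, 287 and 449 CPM, 1.57) and 1 in neutrophils (Tnip1, 79.3 and 141 CPM, 1.77). None was lower in these classes, and the medians were 0.18, 0.23 and 0.07.

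The remaining M1-like genes were counted in the same way. Of those measured, 3 of 11 were higher and 1 lower in macrophages, 2 of 9 higher and 0 lower in monocytes, and 2 of 9 higher and 2 lower in neutrophils, against 15%, 14.2% and 12.3% of all genes higher and 9.57%, 8.26% and 11.9% lower. Their medians of -0.04, -0.02 and 0.15 lay on both sides of 0. Il23a, a subunit of IL-23, had the highest ratio in monocytes (6.26 and 21.6 CPM, 3.45) and in neutrophils (69.6 and 127 CPM, 1.83). Cd86, a costimulatory ligand, was the most abundant in macrophages, at 442 and 528 CPM. Genes of the alternative state were higher for 4 of 6 in ENZ macrophages and 3 of 4 in ENZ monocytes, with 0 lower, against 15% and 14.2% of all genes higher, and their medians were 0.87 and 0.89. In neutrophils 0 of 4 were higher and 1 lower, with a median of 0.13. The mannose receptor gene Mrc1 went from 508 CPM in Control to 1108 CPM in ENZ macrophages (ratio 2.18, 2.11 to 2.25). In monocytes Il10 had 28.7 and 91.2 CPM, a ratio of 3.17 (2.57 to 3.96). The ENZ monocytes thus held more RNA of Il1a, Nos2, Ptgs2 and Acod1, of the antagonist Il1rn and of Il10 alike. In cancer cells 5 of 11 of the remaining M1-like genes were lower and 2 higher (median -0.58) and 3 of 10 feedback genes were lower (median -0.33), against 9.78% of all genes lower and 3.67% higher. In DC 1 of 8 of the M1-like genes was higher and 1 lower (median -0.15), and 1 of 10 feedback genes was lower (median 0.15).

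Immediate early and heat shock genes, which tissue dissociation is known to induce, were past the fold only downward in the 5 classes. In macrophages 2 of 10 were lower, in monocytes 2, in DC 4 and in cancer cells 6, against 9.57%, 8.26%, 8.89% and 9.78% of all genes lower. The medians were -0.15, -0.41, -0.40 and -0.68. Under the fold, Junb was higher in ENZ macrophages, with a ratio of 1.34 (1.29 to 1.38). Their summed level was 13121 and 9199 CPM in macrophages and 17820 and 14655 CPM in monocytes, with Hspa1a the most abundant (7523 and 4307 CPM, and 10631 and 8368 CPM). Neutrophils had 0 of 10 past the fold in either direction. The part of these genes in the ratios of the members was not tested.

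Across 18 sums of class and library, each member was matched to the genes with the most similar log2(CPM + 1) profile, as a description over sums that share cells, libraries and depth. Il1rn and Osm were among the 3 most similar genes of each other, at a Pearson r of 0.97. Il1b was closest to Wfdc17 (0.98) and Ccr1 (0.97), Acod1 to Slfn4 (0.97) and Ptgs2 to Emilin2 (0.95). Tnf was closest to Diaph1 (0.97), Il1a to Igsf6 (0.97) and Nos2 to Hp (0.95), while Il6 was closest to Cd302 (0.96) and Il18 to Eps8 (0.91).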

How the data were processed

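Unnormalized UMI counts of every gene in every barcode were deposited, and the file header names Cell Ranger 7.2.0. The submitters' processing notes name Cell Ranger 2.1.1 and mm10, and the annotation and counting of introns are not given in the sources used here. The members, lists, folds and tests were chosen with earlier results of these data known. Barcodes with at least 1000 UMIs and at most 20% mitochondrial UMIs were kept. Scrublet set a threshold in the ENZ library that was applied to both, because its own threshold marked 0 Control cells, and 295 Control and 292 ENZ cells were removed as doublets.

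Cells of both libraries were clustered together with scanpy 1.11.5 and leidenalg 0.10.2 (2000 variable genes, leaving out the 86 genes of the members and lists, 30 components, 15 neighbours, resolution 1). A class needed 3 markers at 2 times the median cluster, at 20% of the highest cluster and at 10 CPM, and its defining genes. This naming rule went through 3 versions after clusters and the levels of members in them had been seen, and Pcdh9 and Meis2 were taken as cancer markers from earlier results. UMIs were summed per class and library, with exact Poisson, conditional binomial and Clopper-Pearson intervals at 95%. A ratio needed 20 UMIs over both libraries, and 1.5-fold was the limit for counts. UMIs amplified from the same molecule are counted once, but intervals cover counting error only. The arithmetic was tested on simulated monocyte sums of 11404 genes, where 95.8% of intervals held the true ratio. Genes named are the 10 members and, per list, those with the highest ratio, lowest ratio and highest level. Retnlg, S100a8, Chil3, Ly6c2, C1qa, Krt8, Il1r1, Osmr and Il18r1 were chosen after their values had been seen. Alternatives covered the filters, doublets, clustering, class rule, free RNA and scaling. Other software was scipy 1.17.1, numpy 2.4.6 and pandas 2.3.3 on Python 3.11.15. Some genes of the lists are counted but not reported by name here.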

Additional observations from a re-analysis of the deposited data

Results flagged for a closer look

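Among the 5 classes compared, 4 of the 10 genes passed 1.5-fold upward in a class and downward in another, each with an interval that excludes 1. The difference was not tested, since each group is 1 library. Il1a was higher in ENZ monocytes (ratio 2.44) and lower in ENZ cancer cells (0.54). Tnf was higher in neutrophils (1.65) and lower in cancer cells (0.64). Il1rn was higher in monocytes (1.75) and lower in cancer cells (0.62). Acod1 was higher in monocytes (3.29) and lower in cancer cells (0.42). All 4 cancer ratios lay between 0.78 and 0.87 without cancer cluster 17, which came mostly from the Control library.

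Outside these classes, Nos2 was lower in fibroblasts (0.57, 0.37 to 0.86) and higher in monocytes (2.52), a difference that was not tested either. The fibroblast ratio rests on few cells. A Nos2 UMI occurred in 8.57% of 105 Control and 11.25% of 80 ENZ fibroblasts before thinning, and in 2.86% and 1.25% after it. Acod1 passed 1.5-fold upward in NK cells (2.66, 1.41 to 5.12, at 4.88 and 13.01 CPM) and in the unnamed cluster of few UMIs (1.76, 1.13 to 2.76, at 19.4 and 34.0 CPM). An Acod1 UMI occurred in 1.90% of 844 Control and 1.83% of 383 ENZ NK cells before thinning, and in 0.592% and 1.31% after it. The NK ratio thus rests on few cells.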

How the results depend on the processing

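No paired analysis was possible because only 1 library stands for each condition. Counts of members past 1.5-fold (higher, then lower) were 1 and 1 in macrophages, 5 and 0 in monocytes, 3 and 1 in neutrophils, 0 and 2 in DC and 0 and 6 in cancer cells. With at least 2000 UMIs they became 5 and 0 in macrophages, 2 lower in neutrophils, 1 and 4 in DC and 1 and 1 in cancer cells. At most 10% mitochondrial UMIs gave 2 lower in macrophages and 1 higher in DC. Leiden resolution 0.5 gave 0 lower in macrophages and 1 and 3 in cancer cells. With each library clustered alone, 6 were lower in macrophages, 1 in monocytes, 2 in neutrophils and 1 in DC, where 1 was higher. There 714 ENZ cells led by Chil3 and Ngp stayed unnamed while 958 counted as monocytes. A Control cluster of 1077 cells with few UMIs counted as macrophages, while 796 ENZ cells with few UMIs stayed unnamed. Also unnamed were 1149 ENZ cells led by Pcdh9 and 380 Control cells led by Cd209a. The classes of this alternative thus held unlike sets of cells in the Control and ENZ library. Il1b in DC then reversed to a log2 ratio of 0.044. The mean of each cell's CPM gave 0 higher in macrophages, 1 higher in DC and 1 and 3 in cancer cells. Median-of-ratios scaling gave 0 higher in macrophages, and classes from marker UMIs 2. Of the alternatives added after seeing the data, the few-UMI cluster counted with macrophages gave 0 higher, and leaving out cancer cluster 17 gave 1 and 1. The other counts stayed within 1.5 times. The causes of these shifts were not tested. Ratios of Nos2, Il1a, Acod1, Ptgs2, Il1rn and Tnf in monocytes stayed above 1 under all 11 alternatives, and Il1b in macrophages stayed below 1 under all 13. Of the ratios whose interval excludes 1, those under the fold turned direction for Ptgs2 in macrophages (3 of 13 alternatives, lowest log2 ratio -0.67) and neutrophils (2 of 11, highest 0.02), Il18 in monocytes (2 of 11, highest 0.17), Il1a in macrophages (1 of 13, -0.22), Il1b in monocytes (1 of 11, 0.06) and Nos2 in cancer cells (1 of 12, -0.21). Low UMI numbers limit Nos2 in macrophages and Acod1 in DC. Scaling over genes of at least 50 CPM moved the median of all genes by at most 0.07 on the log2 scale.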
